A study of Mus musculus with 6 samples.

Results

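The 10 genes described here make fatty acid-binding proteins, lipid droplet proteins and other parts of fatty acid handling that the PPAR receptors are known for. They are Fabp4, Fabp5, Plin2, Plin3, Cd36, Lpl, Pdk4, Angptl4, Hilpda and Pparg, listed by symbol and matched to Ensembl identifiers, 10 of the 46603 gene rows counted in each library. They were read in bulk RNA sequencing of mouse bone marrow-derived macrophages, cells grown from marrow in the presence of 20% L929-conditioned medium, a source of macrophage growth factor. In 3 libraries the macrophages received medium conditioned by cancer cells with its lipids present, and in 3 libraries they received cancer cell-conditioned medium without lipids. Both groups came from C57BL/6/J mice aged 7 weeks, and both were detached at day 6, reseeded at 800000 cells per well and given the medium 6 h later. Which cancer cells made the medium, how its lipids were taken out and how long the cells stayed in it was not given in the sources used here. No macrophages kept out of conditioned medium are among these libraries, so the values compare the 2 media and not either with a resting cell. Whether the replicates are separate mice, separate cultures or technical repeats is not stated, so each p-value reflects only how far these libraries spread.

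Fatty acids do not dissolve well in the cytosol, and fatty acid-binding proteins carry them there to membranes, enzymes and the nucleus. Inside the nucleus PPAR gamma and its relatives bind fatty acids, pair with the retinoid X receptor (RXR) and switch on genes for lipid uptake, storage and oxidation. In macrophages this programme is known from foam cells and from cells exposed to lipoproteins, where Fabp4, Cd36, Plin2, Pdk4 and Angptl4 are usual readouts of lipid loading.

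Fabp4 and Fabp5 fell with lipids in the medium, as did the droplet coat genes Plin2 and Plin3, while Pdk4 was the single member that was higher. Cd36, Lpl, Angptl4, Hilpda and Pparg did not pass the test. All 10 members passed the filter on low counts. Of them 4 were lower, where 6.87% of the 12767 tested genes were, and 1 was higher, where 4.58% of tested genes were (edgeR quasi-likelihood test, Benjamini-Hochberg adjusted p of at most 0.05). The median log2 fold change, with lipids minus without, was -0.24 over the members and -0.0032 over all tested genes. The members were listed with earlier results of these data known, so the counts describe them and do not test the list. The counts are of transcripts from a whole well, so fewer cells of a type and less RNA per cell cannot be told apart.

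**Figure D1:**
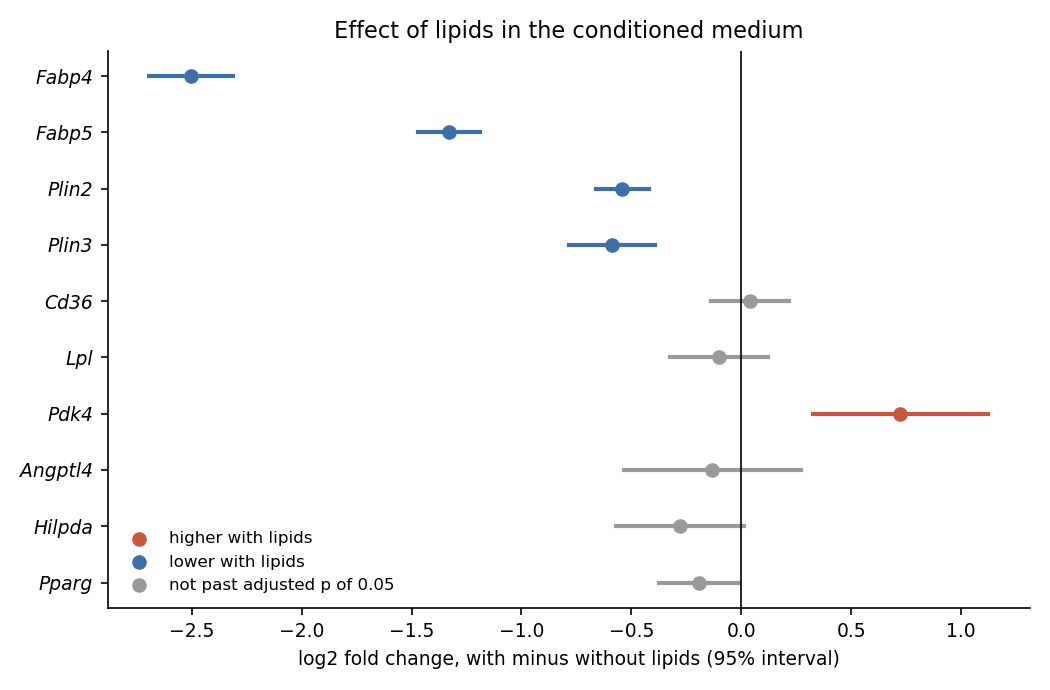
Log2 fold change of each member, with lipids minus without lipids (x axis), with its 95% interval from edgeR; colours mark the direction of members past an adjusted p of 0.05. Fabp4 lies farthest to the left at -2.50, Fabp5 follows at -1.33, Plin2 and Plin3 lie near -0.54 and -0.59, and Pdk4 alone lies to the right at 0.72 among the coloured members.

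Library totals were 20778651 to 25323053 counts with lipids and 19429022 to 22330119 counts without lipids. The 20 most abundant genes took 11.3% to 11.6% of counts with lipids and 13.6% to 14.4% without lipids, and transcripts of the mitochondrial genome took 1.61% to 1.75% with lipids and 1.58% to 1.71% without lipids. Replicates spread more without lipids, and leaving out its replicate 1 raised the calls over all genes to 1566 higher and 1975 lower, against 585 and 877 with all libraries, and the 4 lower members and Pdk4 were called in that fit too. Leaving out any library with lipids, or replicate 2 without lipids, gave 219 to 263 higher and 423 to 488 lower genes, and in each of those 4 fits the 4 lower members were called and Pdk4 was not. The balance of calls turned round to 1241 higher and 596 lower when library totals were used without scaling factors, with the same 5 members called in the same directions. All 8 macrophage markers, Adgre1, Csf1r, Itgam, Cd68, Mertk, Fcgr1, Cd14 and Lyz2, passed the filter. With lipids 2 were higher (Itgam and Fcgr1), where 4.58% of all tested genes were, and 1 was lower (Cd68), where 6.87% were. Itgam shares 3450 exon bases with Gm49368 on the same strand, so its value is uncertain. The 8 markers summed to 29182 to 29539 counts per 1000000 (CPM) with lipids and 29500 to 34376 CPM without lipids. Most of that was Lyz2, at means of 19746 CPM with lipids and 22177 CPM without lipids. Summed markers of neutrophils, mast cells, lymphoid cells and epithelium were each at most 0.841 CPM in any library.

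Fabp4, the fatty acid-binding protein of adipocytes and macrophages, had the smallest p of all tested genes. Its CPM values, scaled by trimmed mean of M-values (TMM), were 10.9, 13.5 and 12.5 with lipids and 69.0, 72.1 and 68.5 without lipids. Every library with lipids lay far below every library without lipids. The log2 fold change was -2.50 (SE 0.09, 95% interval -2.69 to -2.31, edgeR adjusted p = 1.53e-07), so the transcript was 82.4% lower with lipids. Of 12767 tested genes, 2 had a more negative log2 fold change. The call held in all 16 alternative settings, where the log2 fold change lay between -2.58 and -2.42. The gene lies on chromosome 3 (10204088 to 10208576, GRCm38, minus strand) and shares no exon bases with another annotated gene.

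Fabp5, the epidermal-type protein that macrophages also make, moved the same way at a far higher level. It had 223, 259 and 248 CPM with lipids and 618, 612 and 606 CPM without lipids. The coefficient of variation was 7.50% with lipids and 1.03% without lipids, and the groups did not overlap. Its log2 fold change was -1.33 (SE 0.06, 95% interval -1.47 to -1.19, edgeR adjusted p = 1.92e-06), so the transcript was 60.2% lower with lipids. Its p was the third smallest of all tested genes, and the log2 fold change stayed between -1.38 and -1.25 in the 16 alternative settings. Fabp5 has 5 processed pseudogenes that match at least 90% of a stretch of at least 300 bases, and reads could be split among them. The 5 copies together held 0.829% of the counts of Fabp5, and the fold change with their counts added was the same to the second decimal, at -1.33 (edgeR adjusted p = 1.83e-06). At the same limits Plin2 matched Gm12551, and Lpl matched Gm37244, Gm44189 and a retained-intron transcript of Slc7a11. No fit was made with the counts of those added.

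The fitted fold of Fabp4 was larger than that of Fabp5, and their 95% intervals did not overlap. The ratio of Fabp4 counts to Fabp5 counts within a library does not depend on how libraries are scaled, and it was 0.0488, 0.0520 and 0.0506 with lipids, against 0.112, 0.118 and 0.113 without lipids. The mean log2 ratio was -4.31 ± 0.05 with lipids and -3.13 ± 0.04 without lipids (SD, n = 3 each), a difference of -1.18 (exact two-sided permutation p = 0.1). That is the smallest p that 3 against 3 libraries allow, and it becomes 0.175 when adjusted over the 7 pairs of members compared, so no such ratio could pass the threshold. The groups did not overlap in this ratio.

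Genes beside the pair gave a local view, chosen after the values were seen. Fabp4 and Fabp5 start 196 kb apart in a cluster of 5 fatty acid-binding protein genes, and the other members of the cluster, Fabp9, Fabp12 and Pmp2 (the binding protein of myelin), had 0 counts in every library. Within 500 kb of the pair 8 other genes were tested and 2 were lower with lipids, where 6.87% of all tested genes were. One was Zfp704, a zinc finger gene, at -0.42 (SE 0.08, edgeR adjusted p = 0.00648). The other was Gm38335, a long non-coding RNA gene beside Fabp5 on the other strand, at -1.11 (SE 0.29, edgeR adjusted p = 0.0316), with at most 24 counts in a library. Impa1, the tested protein-coding gene that starts nearest to Fabp4, was at -0.05 (SE 0.07, edgeR adjusted p = 0.723).

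Among the 8 other fatty acid-binding protein genes, 2 passed the filter and 1 of these was lower, where 6.87% of all tested genes were. Fabp3, the heart-type protein, had 2.31, 1.81 and 2.15 CPM with lipids and 3.79, 3.50 and 3.99 CPM without lipids, which gave a log2 fold change of -0.86 ± 0.16 (estimate ± SE, edgeR adjusted p = 0.00524). Its groups did not overlap, and the call held in all 16 alternative settings. Fabp3 shares 81 exon bases with Zcchc17 on the other strand, which held 3794 counts over the 6 libraries against 369 for Fabp3, so its value is uncertain if the counting ignored strand. Fabp7, the brain-type protein, was at -0.36 (SE 0.34, edgeR adjusted p = 0.539), with overlapping groups of 1.72 to 2.81 CPM with lipids and 1.47 to 4.57 CPM without lipids. Fabp1, Fabp2 and Fabp6, the liver and gut forms, had 0 counts in every library.

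Fabp4 is also a known transcript of adipocytes and endothelial cells, which marrow contains, so markers of those cells were read beside it. Of 7 adipocyte markers, Adipoq, Lep, Cfd, Retn, Plin1 and Cidec had 0 counts in every library and Slc2a4 at most 1 count. Endothelial markers summed to 71.3 to 74.0 CPM with lipids and 132 to 139 CPM without lipids. Most of that was Vwf, von Willebrand factor, at 38.8 ± 1.7 CPM with lipids and 91.6 ± 10.6 CPM without lipids (SD, n = 3 each; log2 fold change -1.24, edgeR adjusted p = 1.43e-05), and Kdr, a receptor for vascular endothelial growth factor, was lower too at -0.45 (edgeR adjusted p = 0.0361). The endothelial cadherin Cdh5 went the other way at 1.03 (edgeR adjusted p = 0.0440), at 1.26 CPM with lipids and 0.619 CPM without lipids. Pecam1 did not pass at 0.46, Tek and Emcn had at most 5 counts in a library, and Gpihbp1, a capillary protein, had 0 counts throughout. The part of these markers in the Fabp4 result was not tested. Of 6 osteoclast markers 3 were tested and 2 were lower, where 6.87% of all tested genes were. These were Ctsk at -0.90 and Acp5 at -0.76 (edgeR adjusted p = 0.000964 and 0.0133). Dcstamp did not pass at -0.07 (edgeR adjusted p = 0.911), with means of 11.2 CPM with lipids and 11.8 CPM without lipids. Ocstamp and Oscar were below the filter and Calcr was at 0 counts. The osteoclast list summed to 17.7 to 24.8 CPM with lipids and 22.9 to 31.8 CPM without lipids. Of 8 stromal markers 7 were tested and 1 was lower, Col3a1, where 6.87% of all tested genes were. The stromal list summed to 126 to 134 CPM with lipids and 130 to 177 CPM without lipids. The part of the osteoclast and stromal lists in the Fabp4 result was likewise not tested.

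**Figure D2:**
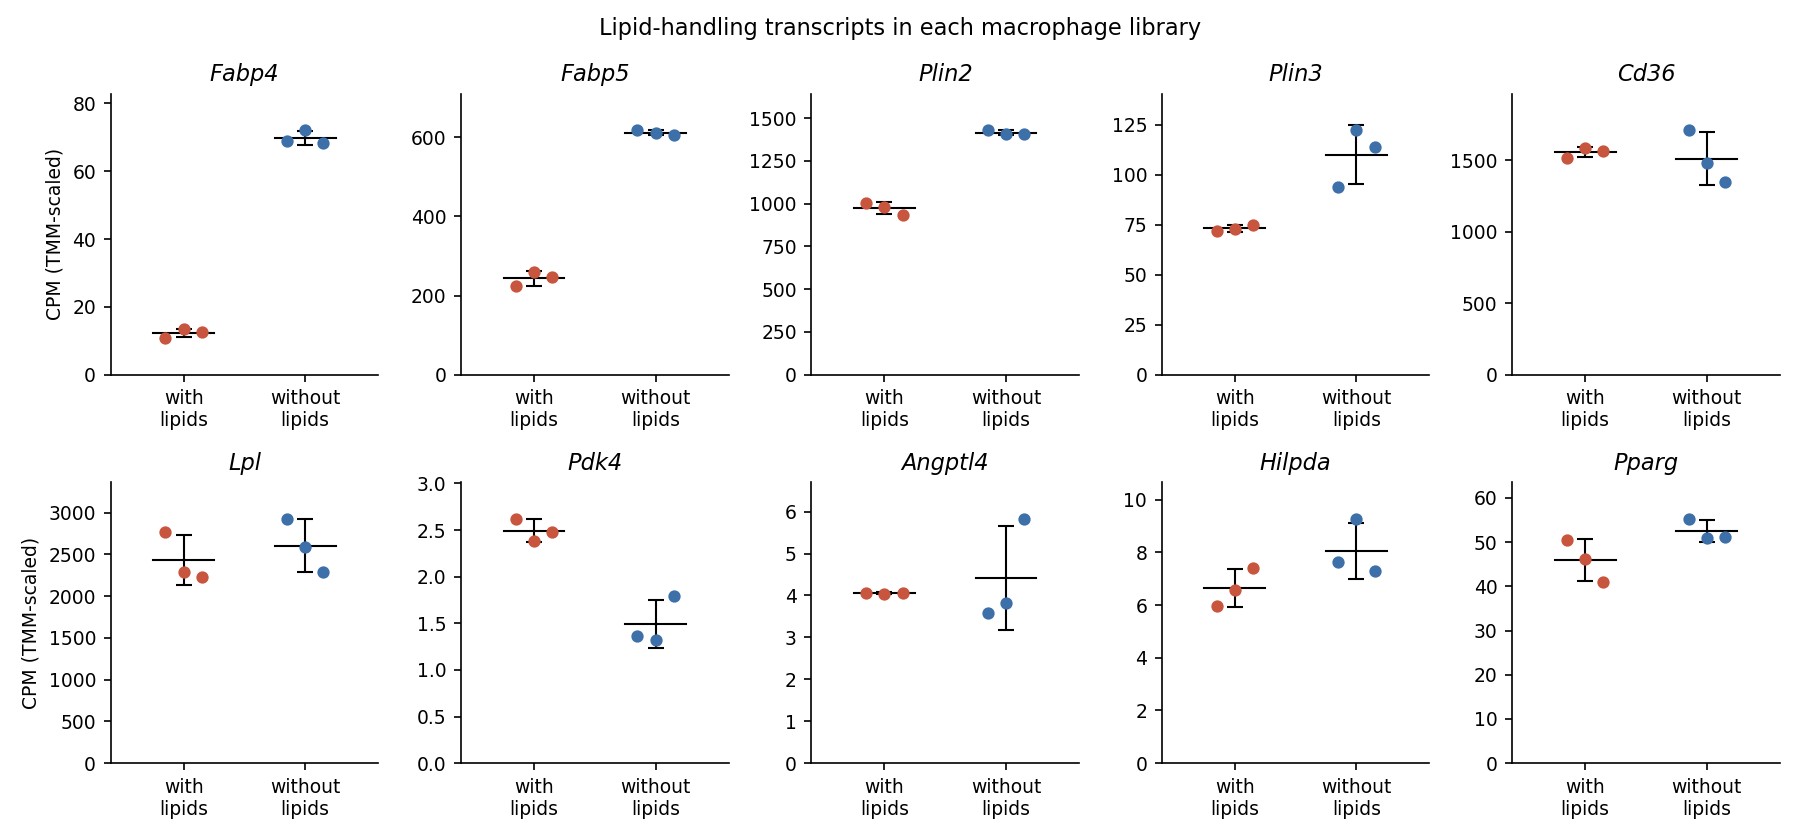
TMM-scaled CPM (y axis, from 0, a separate scale for each gene) of the 10 members in the 3 libraries with lipids (left, red) and the 3 without lipids (right, blue), with the mean and SD in black. Fabp4, Fabp5, Plin2, Plin3, Pdk4 and Pparg have groups that do not overlap, and Angptl4 without lipids has a single high library at 5.83 CPM.

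Perilipins coat lipid droplets, and both that passed the filter were lower with lipids in the medium. Plin2, the main coat protein of macrophage droplets, had 1003, 981 and 935 CPM with lipids and 1429, 1408 and 1409 CPM without lipids. Its groups lay well apart, with a coefficient of variation of 3.60% with lipids and 0.84% without lipids. On the log2 scale the fold change was -0.54 (SE 0.05, 95% interval -0.66 to -0.42, edgeR adjusted p = 0.000111). Plin3, which coats new droplets and is present in most cells, had 71.7, 73.0 and 74.9 CPM with lipids and 93.8, 122 and 114 CPM without lipids. Replicate 1 without lipids was the lowest of its group but still above every library with lipids, and the log2 fold change was -0.59 (SE 0.09, 95% interval -0.78 to -0.39, edgeR adjusted p = 0.00184). Both calls held in all 16 alternative settings, at -0.56 to -0.46 for Plin2 and -0.69 to -0.51 for Plin3. The log2 ratio of Plin2 to Plin3 counts was 3.73 ± 0.08 with lipids and 3.69 ± 0.21 without lipids (SD, n = 3 each), a difference of 0.04 (exact two-sided permutation p = 0.9). The other perilipins were scarce, with Plin1 and Plin5 at 0 counts in every library and Plin4 below the filter.

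Hilpda, a small droplet protein that restrains the lipase Pnpla2 and is induced by hypoxia, was lower in mean but did not pass. It had 5.97, 6.57 and 7.39 CPM with lipids and 7.62, 9.28 and 7.30 CPM without lipids. The groups overlapped through a single pair of libraries, and the log2 fold change was -0.28 (SE 0.13, 95% interval -0.57 to 0.01, edgeR adjusted p = 0.205). Among other droplet proteins, the seipin gene Bscl2, Fitm2 and Hsd17b11 were tested and 0 of the 3 were called by edgeR, where 11.5% of all tested genes were. The count was 0 at an unadjusted p under 0.05 and 0 with DESeq2, while the other 8 of the list were below the filter.

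Promoter letters are shown for the lower members Plin2 and Plin3 and, beside them, for the member that moved the other way and for an abundant member that was not called. RefSeq windows on GRCm38.p6 were at hand for 6 of the 10 members, Plin2, Plin3, Cd36, Pdk4, Hilpda and Pparg. No window was at hand for Fabp4 and Fabp5, which changed most, or for Lpl and Angptl4. Each sequence gives the 250 bases before the start that RefSeq annotates, 5′ to 3′ on the gene's strand, with motif matches in capitals. Plin2 is at chr4:86670060-86670309, minus strand, Plin3 at chr17:56290512-56290761, minus strand, Pdk4 at chr6:5496279-5496528, minus strand and Cd36 at chr5:17835897-17836146, minus strand. The starts used for Plin3 and Cd36 lie 2.36 and 52.9 kb inside the gene as the GENCODE annotation bounds it, so other starts of these genes are not covered.
Plin2: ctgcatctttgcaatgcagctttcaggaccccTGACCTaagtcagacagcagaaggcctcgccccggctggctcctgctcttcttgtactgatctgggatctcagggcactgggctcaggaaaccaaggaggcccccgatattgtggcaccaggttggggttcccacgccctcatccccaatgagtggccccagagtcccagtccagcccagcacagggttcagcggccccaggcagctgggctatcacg
Plin3: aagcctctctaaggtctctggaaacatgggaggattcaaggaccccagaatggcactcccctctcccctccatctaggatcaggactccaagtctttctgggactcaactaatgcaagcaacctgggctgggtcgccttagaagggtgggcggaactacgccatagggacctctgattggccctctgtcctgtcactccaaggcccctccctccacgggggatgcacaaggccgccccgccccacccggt
Pdk4: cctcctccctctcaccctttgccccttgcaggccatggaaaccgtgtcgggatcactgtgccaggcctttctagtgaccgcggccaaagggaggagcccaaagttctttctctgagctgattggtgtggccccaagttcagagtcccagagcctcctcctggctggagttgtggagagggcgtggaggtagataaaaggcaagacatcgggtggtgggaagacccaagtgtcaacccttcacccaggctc
Cd36: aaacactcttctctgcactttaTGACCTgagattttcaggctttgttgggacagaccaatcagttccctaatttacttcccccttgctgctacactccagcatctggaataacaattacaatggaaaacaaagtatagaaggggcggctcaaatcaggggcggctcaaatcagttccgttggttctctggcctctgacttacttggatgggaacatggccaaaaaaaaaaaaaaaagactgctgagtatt

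These windows were searched on both strands for the direct repeat that PPAR and RXR bind, spelled AGGTCANAGGTCA, for its half-site AGGTCA, for the E-box CACGTG, the hypoxia core ACGTG (part of that E-box), the AP-1 site TGANTCA, the FOXO site GTAAACA and the TATA box TATAAA. The capitals in Plin2 and Cd36 are each a half-site on the opposite strand, starting 218 and 228 bases before the start, and the windows of Plin3 and Pdk4 held no match. Of the 3 windows of Pparg, 2 held a half-site on the gene's own strand, 28 and 9 bases before their starts, and the window with the nearer one also held the TATA box letters on the opposite strand. Of the 2 windows of Hilpda, 1 held the hypoxia core and the AP-1 site, 43 and 128 bases before its start. Of all 32851 promoter windows of the same length 14.0% held the half-site and 0.0335% the full repeat. The E-box was in 6.02%, the hypoxia core in 16.6%, the AP-1 site in 6.75%, the FOXO site in 3.17% and the TATA box in 12.4%. A match is a description of letters in this window only. The half-site was thus in windows of Plin2, lower with lipids, and of Cd36 and Pparg, not called, and sequence outside the window was not searched.

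Cd36 and Lpl, both of which act at cell surfaces, were abundant and did not pass the test. Cd36, a scavenger receptor that takes up oxidised lipoprotein and fatty acids, had 1516, 1586 and 1567 CPM with lipids and 1711, 1479 and 1347 CPM without lipids. The group without lipids spanned the other group on both sides. The log2 fold change was 0.04 with a 95% interval of -0.14 to 0.22 (edgeR adjusted p = 0.786), and it turned to -0.032 when replicate 3 without lipids was left out. Lpl, the secreted lipase that frees fatty acids from lipoprotein triglyceride, had 2770, 2285 and 2232 CPM with lipids and 2926, 2592 and 2288 CPM without lipids. Those groups overlapped as well, with a log2 fold change of -0.10 and a 95% interval of -0.32 to 0.12 (edgeR adjusted p = 0.581). The intervals of both exclude the size of the change of Plin2.

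Of the other 12 uptake genes 8 were tested and 1 was lower, where 6.87% of all tested genes were. The lower gene was Slc27a1, a fatty acid transport protein. It had 228, 201 and 205 CPM with lipids and 243, 326 and 305 CPM without lipids, so that the log2 fold change was -0.46 ± 0.10 (estimate ± SE, edgeR adjusted p = 0.0125), and the call was lost without replicate 2 or 3 with lipids or without replicate 2 of the other group (largest adjusted p = 0.0704). Replicate 1 without lipids lay near the lipid libraries. The scavenger receptors Scarb1 and Msr1 and the lipoprotein receptors Vldlr and Lrp1 did not pass, with log2 fold changes of -0.10, 0.29, 0.32 and -0.26.

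Angptl4, a secreted inhibitor of Lpl and a usual PPAR target, was scarce and not called. It had 4.07, 4.04 and 4.07 CPM with lipids, against 3.58, 3.82 and 5.83 CPM without lipids. The lipid libraries were nearly equal and lay between the others, and replicate 3 without lipids was the highest of all. The log2 fold change was -0.13 with a 95% interval of -0.53 to 0.27 (edgeR adjusted p = 0.693), and without that library it was 0.14. The ratio of Lpl to Angptl4 counts was 681, 566 and 548 with lipids and 818, 679 and 392 without lipids, a difference of -0.01 in mean log2 ratio (exact two-sided permutation p = 1).

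Of 14 other genes of lipases and their regulators, 9 were tested and 2 were lower, where 6.87% of all tested genes were. These were the lipase gene Lipa and the activator gene Abhd5. Lipa, the acid lipase that breaks down lipids in lysosomes, had 1951, 2058 and 2003 CPM with lipids and 2860, 2631 and 2556 CPM without lipids, or -0.42 ± 0.06 as a log2 fold change (estimate ± SE, edgeR adjusted p = 0.00140) with no overlap between groups. Abhd5, the activator of Pnpla2, averaged 52.2 ± 0.3 CPM with lipids and 66.5 ± 5.8 CPM without lipids (SD, n = 3 each), or -0.35 ± 0.07 as a log2 fold change (estimate ± SE, edgeR adjusted p = 0.0108), a call lost when any library with lipids was left out (largest adjusted p = 0.0599). Pnpla2 itself was at -0.18 (SE 0.11, edgeR adjusted p = 0.317) and Lipe, the hormone-sensitive lipase, at 0.07 (SE 0.13, edgeR adjusted p = 0.779).

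Pdk4, a kinase that shuts off pyruvate dehydrogenase and so favours fatty acid oxidation, was the member that was higher. Its counts were 58, 62 and 53 with lipids and 26, 25 and 39 without lipids. Scaled, these were 2.62, 2.38 and 2.48 CPM with lipids and 1.37, 1.33 and 1.79 CPM without lipids, groups that did not overlap. For Pdk4 the log2 fold change was 0.72 (SE 0.18, 95% interval 0.33 to 1.12, edgeR adjusted p = 0.0258). The call was lost with DESeq2 (adjusted p = 0.0622) and when replicate 1, 2 or 3 with lipids or replicate 2 without lipids was left out (edgeR adjusted p = 0.0928, 0.0790, 0.0840 and 0.109), with log2 fold changes of 0.64 to 0.89 over all 6 fits that left out a library. The ratio of Pdk4 to Angptl4 counts was 0.644, 0.590 and 0.609 with lipids and 0.382, 0.347 and 0.307 without lipids, again without overlap (difference in mean log2 ratio 0.84, exact two-sided permutation p = 0.1, adjusted p = 0.175 over the 7 pairs).

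Other oxidation genes that PPARs are known to switch on were listed together with Pdk1, Pdk2 and Pdk3, kinases like Pdk4 and not oxidation enzymes. Of 21 listed, 18 were tested and 0 passed with edgeR, where 11.5% of all tested genes did. The median log2 fold change of the 18 was -0.0098, with a range of -0.34 to 0.18. At an unadjusted p under 0.05 the count was 1, Acot2 (a thioesterase, chosen after its value was seen), and with DESeq2 it was 0. Cpt1a, the gate to mitochondrial oxidation, was at 0.02 (SE 0.06) and the kinases Pdk1, Pdk2 and Pdk3 at 0.17, 0.05 and 0.18. Among 12 tested genes of triglyceride synthesis and acyl-CoA ligation 1 was lower, where 6.87% of all tested genes were. It was Acsl1, which activates long-chain fatty acids, at 66.6 ± 3.1 CPM with lipids and 85.0 ± 8.8 CPM without lipids (SD, n = 3 each). Its log2 fold change was -0.35 (SE 0.08, edgeR adjusted p = 0.0174). That call was lost without replicate 1 or 2 with lipids or without replicate 2 of the other group (largest adjusted p = 0.101), and Acsl3, Acsl4 and Acsl5 did not pass, at 0.02, 0.09 and 0.08. The final enzymes Dgat1 and Dgat2 did not pass either, at 0.12 (SE 0.10) and 0.03 (SE 0.22).

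Pparg, which encodes the receptor itself, had 50.5, 46.2 and 41.0 CPM with lipids and 55.3, 50.9 and 51.2 CPM without lipids. Every library with lipids lay below every library without lipids, though the nearest pair differed by less than 1 CPM. The log2 fold change was -0.19 (SE 0.08, 95% interval -0.38 to -0.01, edgeR unadjusted p = 0.0411, adjusted p = 0.167), so it did not pass over all genes. The ratio of Fabp4 to Pparg counts was 0.216, 0.291 and 0.306 with lipids and 1.25, 1.42 and 1.34 without lipids, a difference of -2.31 in mean log2 ratio (exact two-sided permutation p = 0.1, adjusted p = 0.175). That difference was nearly as large as the log2 fold change of Fabp4 itself.

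Among other receptors, Ppard, the delta form, was at 16.5, 15.3 and 16.3 CPM with lipids and 11.0, 16.4 and 19.5 CPM without lipids (log2 fold change 0.03, SE 0.16, edgeR adjusted p = 0.929), and Ppara had 1 count over all libraries. The partners Rxra and Rxrb were at -0.10 (SE 0.08, edgeR adjusted p = 0.446) and -0.15 (SE 0.10, edgeR adjusted p = 0.395). Of the 14 receptors and cofactors listed 11 were tested, 1 was lower and 0 were higher, where 6.87% and 4.58% of all tested genes were. The lower gene was Nr1h3, the oxysterol receptor LXR alpha, with 10.8, 11.1 and 10.4 CPM with lipids and 15.8, 17.7 and 18.5 CPM without lipids, or -0.68 ± 0.10 as a log2 fold change (estimate ± SE, edgeR adjusted p = 0.00111).

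**Figure D3:**
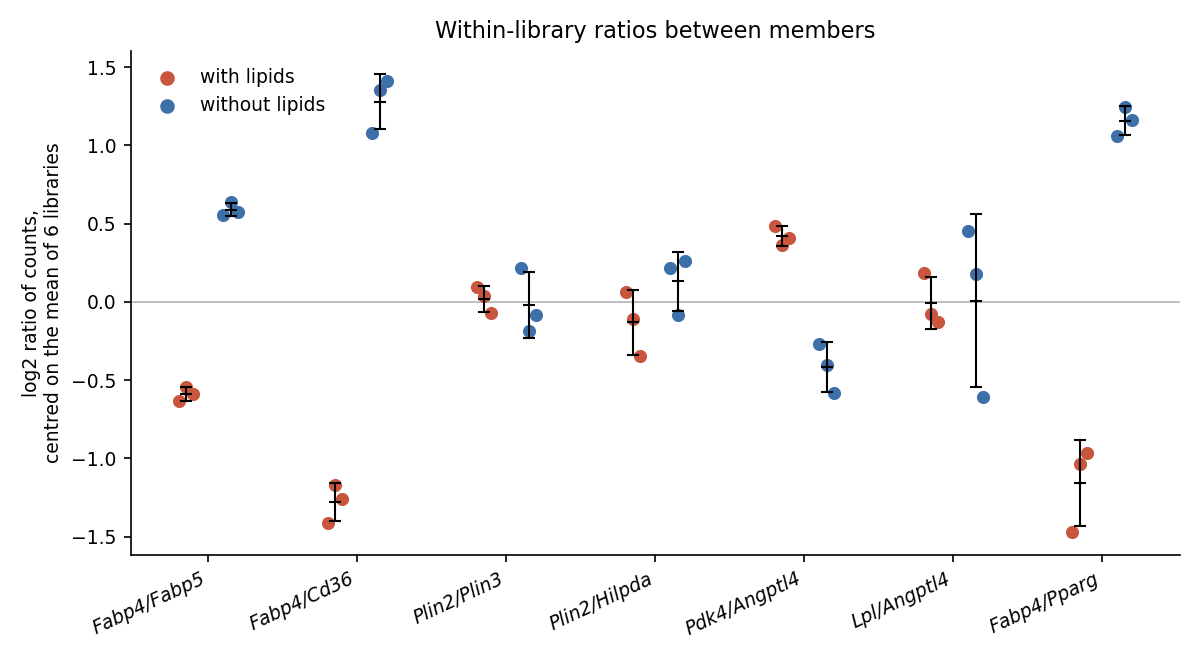
Log2 ratio of the counts of 2 members in each library, centred on the mean of the 6 libraries (y axis), for 7 pairs (x axis), with lipids in red on the left of each pair and without lipids in blue, and the mean and SD in black. The groups stand apart for Fabp4/Fabp5, Fabp4/Cd36, Pdk4/Angptl4 and Fabp4/Pparg and overlap for Plin2/Plin3, Plin2/Hilpda and Lpl/Angptl4.

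Against Cd36, the abundant PPAR target that was not called, Fabp4 gave the widest separation of the 7 ratios. There were 0.00719, 0.00848 and 0.00800 counts of Fabp4 for each count of Cd36 with lipids and 0.0403, 0.0488 and 0.0508 without lipids, a difference of -2.56 in mean log2 ratio (exact two-sided permutation p = 0.1, adjusted p = 0.175). This difference follows from the log2 fold changes of the pair, -2.50 for Fabp4 and 0.04 for Cd36, and is not a separate result. Plin2 to Hilpda showed little separation, with a difference of -0.26 (exact two-sided permutation p = 0.2, adjusted p = 0.28).

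Over all 93 other genes of these pathway lists 63 were tested, 6 were lower, where 6.87% of all tested genes were, and 0 were higher, where 4.58% were. The median log2 fold change of the 63 was -0.10. The lower genes were Fabp3, Nr1h3 and Lipa, called in all 16 alternative settings, and Slc27a1, Abhd5 and Acsl1, which each lost their call in 4 of the 16. Groups did not overlap for 17 of the 63, against 30.5% of all tested genes, and for 6 of the 10 members.

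**Figure D4:**
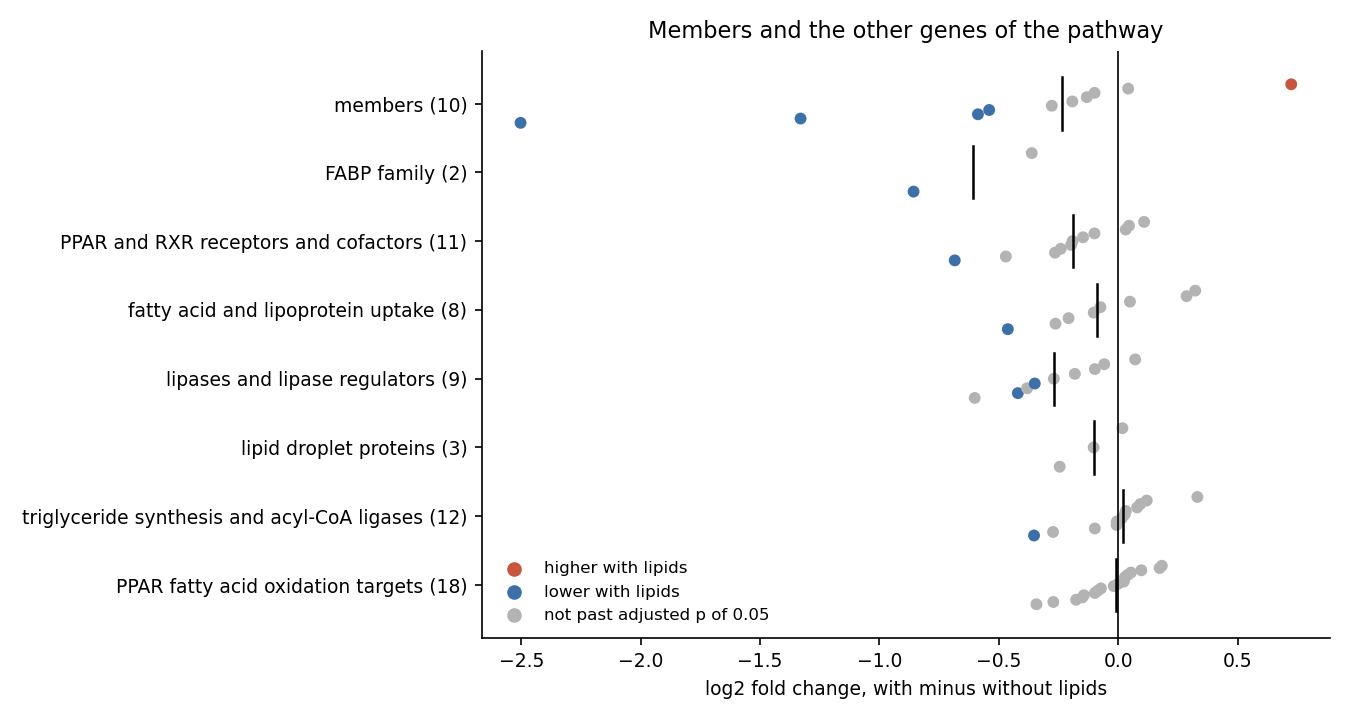
Log2 fold change, with lipids minus without (x axis), of the members and of the tested genes of 7 related lists (rows, number tested in brackets), where each point is a gene, colours mark genes past an adjusted p of 0.05 and black bars mark medians. Fabp4 and Fabp5 lie beyond every gene of the other lists, whose values run from -0.86 to 0.33, and the oxidation targets lie around 0.

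Per length, the members covered a wide range of levels. Levels were divided by the length of the principal transcript, as CPM per kilobase. With lipids the order was Lpl at 590 ± 72, Plin2 at 515 ± 19, Cd36 at 458 ± 11, Fabp5 at 247 ± 18, Pparg at 26.0 ± 2.7, Plin3 at 20.1 ± 0.4, Fabp4 at 13.7 ± 1.4, Hilpda at 6.77 ± 0.73, Angptl4 at 1.23 ± 0.01 and Pdk4 at 0.716 ± 0.035 CPM per kilobase (SD, n = 3). In that order Lpl and Plin2 had overlapping mean ± SD ranges and the other neighbours did not. Without lipids Plin2 led at 750 ± 6, before Lpl at 632 ± 78, Fabp5 at 620 ± 6, Cd36 at 445 ± 54, Fabp4 at 78.0 ± 2.2, Plin3 at 30.2 ± 4.0, Pparg at 29.7 ± 1.4, Hilpda at 8.22 ± 1.08, Angptl4 at 1.33 ± 0.37 and Pdk4 at 0.429 ± 0.074 CPM per kilobase (SD, n = 3). There Lpl and Fabp5, and Plin3 and Pparg, were neighbours whose ranges overlapped. Among 11616 tested protein-coding genes Fabp4 ranked 4656 by level per length with lipids and 848 without lipids, and Fabp5 ranked 215 and 76.

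The genes most alike to a member were named by the smallest root mean square difference in centred log2 CPM over the 6 libraries, among 11615 other protein-coding genes, as a description. For Fabp4 they were Kit, Dio2, Stra6l, Marco and Acod1, at differences of 0.30 to 0.41 log2. For Fabp5 they were Cd274, Gpnmb, Tmem158, Bhlhe40 and Atp6v0d2, at 0.07 to 0.12 log2. Plin2 was matched most closely by Mocos, Anxa4, Adi1, Nedd4l and Vipas39, at 0.03 to 0.04 log2, and Pdk4 by Ebf3, Dynlt1c, Oas2, Abca9 and Ahr, at 0.06 to 0.08 log2. No gene was shared between these lists of 5, but the measure follows the size of the fold change, in which these members differ, so little sharing was possible.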

How the data were processed

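The files deposited by the authors hold raw counts, 1 file for each of 6 libraries, with 46603 Ensembl gene rows and 0 rows for unassigned reads. Per the submitters' processing notes, the build was GRCm38.p4 and the tools included TopHat2 2.1.0, HTSeq and DESeq2, whose roles they do not state, and per the labels the library kit was stranded and selected poly(A) RNA. Neither strand setting nor annotation release was given in the sources used here. Symbols came from a GENCODE annotation of GRCm38, which matched 46091 identifiers.

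Counts were fitted in edgeR 4.0.16 (R 4.3.3) after filterByExpr (minimum count 10, minimum total 15), with TMM scaling and a two-sided quasi-likelihood F test of lipids against no lipids, adjusted over 12767 genes with a threshold of 0.05. At these depths the upper limit for a gene with 0 counts, taken as 3 counts, was 0.118 to 0.154 CPM and covers counting error only. SEs came from the F statistic. Replicates differed by more than sampling noise. In 6 simulated sets of counts over 12767 genes for this comparison, with 50 genes altered at each size, recovery was 26% to 36% at 1.25-fold, 60% to 74% at 1.5-fold, 88% to 92% at 2-fold and 94% to 100% at 4-fold, and 4.73% to 9.43% of calls were false.

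The members, gene lists and naming rule were chosen with earlier results of these data known. Named were the 10 members, called genes of the pathway lists, the PPAR and RXR receptors, neighbours in the Fabp cluster and the 5 genes most alike to 4 members. Other examples were chosen after their values were seen. Alternatives were other scalings and filters, DESeq2 1.42.0, limma-voom 3.58.1, a replicate block, an adjusted p of 0.01 and each library left out. Counting Fabp5 with its pseudogenes was chosen after seeing the data.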

Additional observations from a re-analysis of the deposited data

How the results depend on the processing

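The 4 lower members were called in all 16 alternative settings. Over 160 combinations of member and setting, 152 kept direction and side of the threshold. Some of these could hardly change. Adding the pseudogene counts altered only Fabp5 among the members, and the adjusted p of 0.01 was read from the main fit. The 6 lost calls were all of Pdk4, with DESeq2 (0.74, adjusted p = 0.0622), at an adjusted p of 0.01 (0.72, edgeR adjusted p = 0.0258) and in 4 fits that left out a library, so 0 members were higher there. When each library was left out in turn, Pdk4 lay between 0.64 and 0.89, Cd36 between -0.032 and 0.14, and Angptl4 between -0.26 and 0.14, with 0 or 1 members higher and 4 lower. The signs of Cd36 and Angptl4 each turned when the no-lipid replicate 3 was left out, and neither was called in any setting. Among ratios, Plin2/Plin3 ranged from -0.047 to 0.16 and Lpl/Angptl4 from -0.32 to 0.21, while those of Fabp4 kept their sign. Over all genes, library totals without scaling factors gave 1241 higher and 596 lower genes, against 585 and 877, with the median of all genes at 0.07 log2, no filter gave 1009 higher and 1243 lower, and an adjusted p of 0.01 left 216 higher and 444 lower. Leaving out a library gave 219 to 1566 higher and 423 to 1975 lower genes. The cause was not tested. Same-numbered libraries correlated at -0.01, -0.09 and 0.18 in their deviations from group means, and differently numbered ones at -0.13 to 0.16. With 3 libraries in a group these values cannot show whether the numbers pair them. The replicate block gave 715 higher and 937 lower genes, against 585 and 877, with 4 members lower and 1 higher. Paired by number, the smallest exact p for a ratio is 0.25. Depth is low for Pdk4, at 25 to 62 counts a library.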
